A study of Mus musculus with 12 samples.

Results

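Primary-granule cells were taken from single-cell RNA-seq of the neonatal mouse liver as the cells with at least 10 UMIs (unique molecular identifiers, each 1 captured RNA molecule) of Elane, Mpo and Prtn3 summed. They also had to hold under 10 UMIs of Ngp, Camp and Ltf summed, at most 1 UMI of C1qa, C1qb and C1qc summed, and none of Cd79a, Cd3e or Stab2. Of 207537 deposited cell barcodes, 202557 had 500 to 50000 UMIs, of which no more than 20% were mitochondrial, and were kept, and 537 of these, or 0.265%, met the rule. The values that chose these cells are described below without a test. All mice were C57BL/6J pups, with 6 naive controls and 6 mice with phlebotomy-induced anemia (PIA), 1 liver library per mouse. PIA mice lost 20 µL of blood per g of body weight at each of 5 facial vein draws between postnatal days 2 and 10, controls had needle sticks without blood loss, and livers were collected on day 11. Dissociated liver cells were pelleted without a sort, so leukocytes of the blood within the liver were not separated from cells that arose there.

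Neutrophils and monocytes arise from granulocyte-monocyte progenitors, which before birth and shortly after it are found in the liver as well as in the marrow. The primary (azurophil) granules are the first to form, in promyelocytes, and are filled with the serine proteases neutrophil elastase (Elane), proteinase 3 (Prtn3) and cathepsin G (Ctsg) and with myeloperoxidase (Mpo). Their RNAs are lost as the cell matures to the myelocyte, when the secondary-granule proteins lactoferrin (Ltf), cathelicidin (Camp) and neutrophilic granule protein (Ngp) are made. The same proteases and Mpo are also transcribed, at lower levels, in progenitors that go on to become monocytes.

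The granule genes that define the cells are Elane (ENSMUSG00000020125) and Prtn3 (ENSMUSG00000057729), which lie on chromosome 10 at chr10:79886247-79888215 and chr10:79874476-79883174, and Mpo (ENSMUSG00000009350) at chr11:87793581-87804413, all on the plus strand of GRCm38. Their upstream sequences are shown because these 3 genes carry the definition of the cells. Each was read from the RefSeq promoter table (GRCm38.p6) as the 250 bases before the RefSeq start, and bases that GENCODE counts as exon of the gene were cut from the 3′ end. The RefSeq start lay downstream of the first base of the GENCODE gene by 65 bases for Elane, 203 for Mpo and 5191 for Prtn3, so the Prtn3 stretch lies inside the GENCODE gene, in an intron of its longest transcript and directly before the first exon of a shorter one. Capitals mark GAGGAA, the core of sites bound by PU.1-type factors, searched on both strands.
Elane, chr10:79886062-79886246, plus strand: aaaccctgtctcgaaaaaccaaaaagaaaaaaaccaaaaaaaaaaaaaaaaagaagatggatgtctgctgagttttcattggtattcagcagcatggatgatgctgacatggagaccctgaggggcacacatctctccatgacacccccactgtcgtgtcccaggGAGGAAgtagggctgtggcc
Prtn3, chr10:79879417-79879613, plus strand: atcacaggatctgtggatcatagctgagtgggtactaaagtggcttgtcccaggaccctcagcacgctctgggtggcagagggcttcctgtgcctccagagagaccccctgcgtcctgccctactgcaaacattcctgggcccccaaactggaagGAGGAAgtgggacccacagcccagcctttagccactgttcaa
Mpo, chr11:87793534-87793580, plus strand: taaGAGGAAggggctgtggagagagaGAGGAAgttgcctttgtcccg

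The first base of the match lay at position -85 from the RefSeq start for Elane, -95 for Prtn3, and -247 and -224 for Mpo. Of the 32851 RefSeq promoters, 23.3% held GAGGAA in the full 250 bases on either strand. The C/EBP-type letters TTGCNNAA were in none of the 3 stretches and in 9.56% of all promoters. These matches are letters in a window and are not evidence of binding.

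Within the rule, the summed Elane, Mpo and Prtn3 count ran from 10 to 1037 UMIs per cell with a median of 69 and quartiles of 25 and 155. All 3 genes were detected in 416 of the 537 cells, 2 of them in 103 and a single one in 18. Prtn3 was detected in 534 cells, Mpo in 476 and Elane in 462. No UMI of Ngp, Camp or Ltf was counted in 397 cells. The limits of the rule fell in a continuum at the low end of the primary-granule sum. Just inside it, 33 cells held 10 or 11 primary-granule UMIs and Ctsg at 164 CPM (a gene's UMIs divided by all UMIs and scaled to counts per 1000000), and just outside, 40 cells held 8 or 9 and Ctsg at 106 CPM. At the limit toward the next stage, 7 cells held 8 or 9 secondary-granule UMIs and 3 cells held 10 or 11. Another 168 cells reached 10 UMIs on both sums and were counted as secondary-granule cells.

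**Figure D1:**
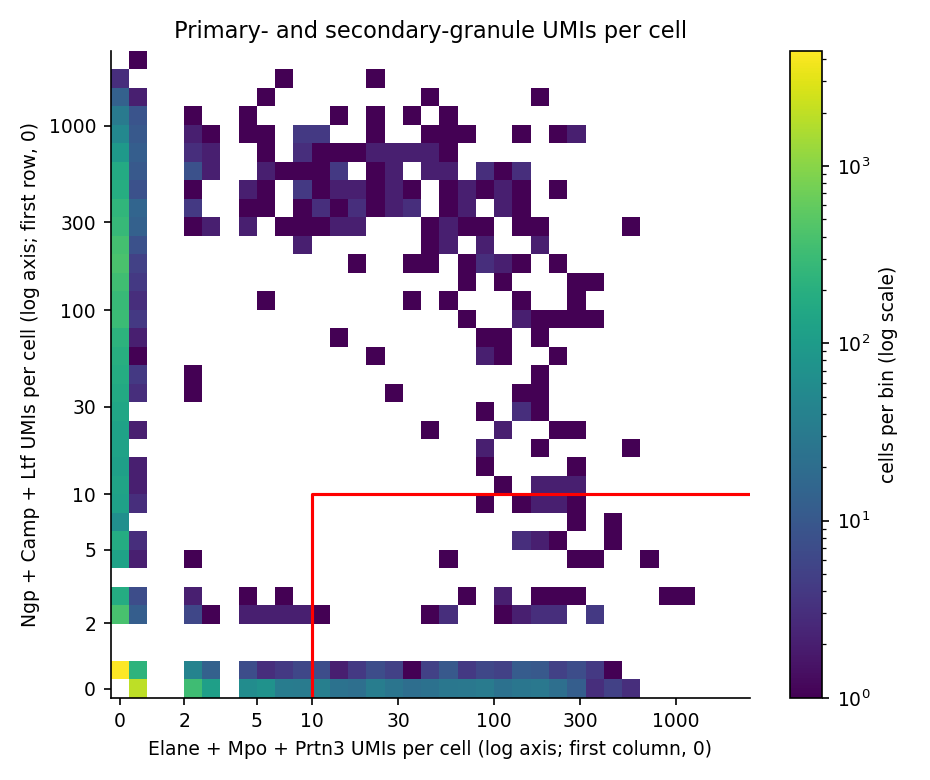
Each bin gives the number of kept cells (color, log scale) by the summed Elane, Mpo and Prtn3 UMIs (horizontal, log axis) and the summed Ngp, Camp and Ltf UMIs (vertical, log axis), for cells within the limits on the other gate genes; cells at 0 on both are not drawn. The red line encloses the 537 primary-granule cells, most of which lie in the lowest rows, 397 of them at 0 on the vertical axis.

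Later stages were gated for comparison, and because the gates are read from the same RNA, differences between stages are descriptions without a test. Secondary-granule cells (4529) held 10 or more UMIs of Ngp, Camp and Ltf, and mature neutrophils (3114) held under 10 of either sum with at least 20 UMIs of S100a8 and S100a9 and at least 3 of Csf3r, Cxcr2 and Retnlg. In CPM of all UMIs, as mean ± SD over the 12 mice, Elane stood at 4585 ± 1110 in the primary-granule cells, 631 ± 331 in secondary-granule cells, 3.26 in mature neutrophils and 50.3 in all kept cells. Among genes the rule did not use, Ctsg stood at 645 ± 125 CPM in the primary-granule cells, at 20.3 ± 16.1 in secondary-granule cells and at 0 in mature neutrophils. Ctsg was higher in the primary- than in the secondary-granule cells of all 12 mice. Ms4a3, a tetraspan gene used to trace granulocyte-monocyte progenitors, stood at 345 ± 90.7 against 89.0 ± 33.7 CPM. Prss57, which encodes the granule protease neutrophil serine protease 4, stood at 92.0 ± 34.4 against 23.2 ± 9.54 CPM. Primary-granule contents did not all follow this order: 9 of the 14 listed genes outside the gate were higher than in secondary-granule cells, while serglycin (Srgn), the proteoglycan that packs granule proteases, was at 1286 ± 208 against 1404 ± 244 CPM.

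The later granule program was low in these cells. Lipocalin 2 (Lcn2), a secondary-granule protein that binds bacterial siderophores, stood at 28.5 ± 21.4 CPM against 4910 ± 587 in secondary-granule cells, and none of the 16 listed secondary- and tertiary-granule genes outside the gate was higher in the primary-granule cells. Ficolin B (Fcnb), a lectin of late promyelocytes, was at 69.1 ± 25.9 against 177 ± 46.8 CPM. Cebpe, the factor required for secondary granules, was at 29.1 ± 13.3 against 159 ± 22.6 CPM. By contrast, Myb, a factor of proliferating progenitors, was at 177 ± 44.5 against 26.0 ± 6.38 CPM, and Cd34, a surface protein of early progenitors, at 127 ± 34.8 against 2.96 ± 4.11 CPM. All 17 genes for protein folding and secretion summed to 5340 ± 441 CPM against 1367 ± 150, and Hspa5, the main chaperone of the endoplasmic reticulum, was at 466 against 151 CPM. The DNA replication genes of S phase summed to 2151 ± 241 against 793 ± 186 CPM, and those of G2/M to 1771 ± 186 against 1011 ± 187.

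Monocyte genes were present too, which goes against the name of granulocyte progenitors for the whole population. All 13 listed genes of monocyte fate had a higher mean in the primary- than in the secondary-granule cells, and their sum was 4382 ± 399 against 1022 ± 264 CPM. Ms4a6c, a membrane gene of monocytes and macrophages, stood at 476 ± 84.8 against 11.9 ± 21.7 CPM. F13a1, which encodes the A chain of coagulation factor XIII, stood at 251 ± 81.9 against 1.48 ± 2.46 CPM. Irf8, the factor that directs progenitors to monocytes and dendritic cells, was at 144 ± 30.4 against 7.39 ± 7.27 CPM.

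**Figure D2:**
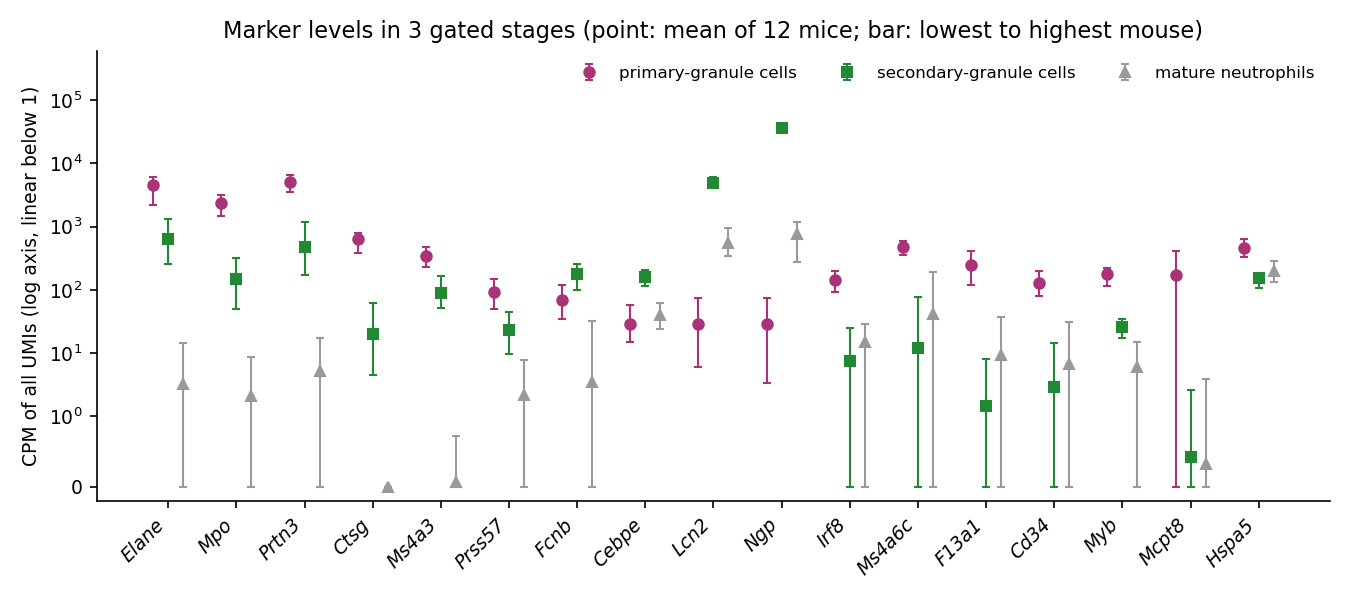
Levels in CPM of all UMIs (vertical, log axis that is linear below 1) of marker genes in primary-granule cells (circles), secondary-granule cells (squares) and mature neutrophils (triangles); points are means of 12 mice and bars run from the lowest to the highest mouse. Elane, Mpo, Prtn3 and Ngp were used to gate the cells; of the others, Ctsg at 645 CPM, Irf8, Ms4a6c, F13a1 and Cd34 stood highest in the primary-granule cells, and Lcn2, Fcnb and Cebpe in the secondary-granule cells.

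To see how these programs were divided among cells, each cell was thinned to 3000 UMIs, which 530 of the 537 cells reached, and classed by the sums of Fcnb, Cebpe, Gfi1, Chil3, Cd177 and Lcn2 (granulocyte-directed) and of Irf8, Csf1r, Ly86, F13a1, Klf4 and Ms4a6c (monocyte-directed), with 3 UMIs as the cut. Of the 530 cells, 271 (51.1%) were monocyte-directed, 21 (3.96%) granulocyte-directed, 21 had both and 217 (40.9%) neither. The classes are ranges of a score: 95 cells lay near the monocyte cut and 65 near the granulocyte cut. The limit on Ngp, Camp and Ltf in the rule also removes the cells furthest toward granulocytes. Thinned secondary-granule cells (1645 of 4529) gave 93.9% ± 3.95 granulocyte-directed and 0.0873% ± 0.235 monocyte-directed cells per mouse. Lcn2 and Chil3 of the granulocyte sum are later-granule genes like those that gate these cells, so the gate largely fixes these shares. As 51.1% of its cells were monocyte-directed, the population is called primary-granule cells here, after its rule.

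Levels over all cells of a class, in CPM without replicates, showed the granule genes outside the class sums. Elane stood at 15070 CPM in granulocyte-directed, 2199 in monocyte-directed and 6015 in undirected cells, with median gate sums of 200, 51 and 112 UMIs. Ctsg stood at 1198, 431 and 947 CPM in the same order, and Ms4a3 at 1127, 138 and 544. Monocyte-directed cells had more Ctsc, the protease that activates the granule serine proteases, at 612 CPM against 96.6 in granulocyte-directed cells. The undirected cells also held most of the basophil and mast cell transcripts: the protease Mcpt8 stood at 391 CPM in them and at 4.49 in monocyte-directed cells, and carboxypeptidase A3 (Cpa3) at 133 and 0.749 CPM. Of the 530 cells, 20 held at least 3 UMIs summed over basophil and mast cell genes, Mcpt8, Cpa3 and Fcer1a among them. The listed eosinophil genes Prg2 and Epx were not in that sum. Fcer1a and Epx were at 0 in the primary-granule cells.

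At 3000 UMIs, 326 cells (61.5%) held at least 3 UMIs of the G2/M genes, and 88 (16.6%) at least 2 UMIs of Cd34, Kit, Flt3 and Sox4. Of the latter, 33 were monocyte-directed, 55 neither, and none granulocyte-directed. Per mouse, the G2/M share was 60.6% ± 5.99 in primary-granule cells. It was 47.8% ± 10.7 in secondary-granule cells, of which only the deeper 1645 of 4529 reached 3000 UMIs and entered. Without thinning the share in primary-granule cells was 77.4% ± 6.94 in control and 83.2% ± 8.63 in anemic mice, whose cells differed in depth.

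Library sizes ran from 46252146 to 74545930 UMIs, with 13936 to 21008 kept cells per mouse, and the summed UMIs of the primary-granule cells from 133983 to 1179584 per mouse. Pairs of libraries shared 56 to 122 barcodes, but no barcode of a primary-granule cell stood in a second library as one. No library was left out, no doublet caller was run, and whether doublets had been removed is not given in the sources used here. Of the 537 cells, 11 had over 20000 UMIs, and 20 had over 5% hemoglobin UMIs or over 1% UMIs of the hepatocyte list. Those over 20000 UMIs were 1 of the 199 cells of controls and 10 of the 338 cells of anemic mice. By Xist and Y-linked UMIs, 4 controls and 2 mice with PIA were female, so the sexes were not balanced between the groups.

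The first comparison asked whether anemia changed how many primary-granule cells the liver held. Counts per mouse were 21, 46, 40, 35, 40 and 17 in controls and 50, 41, 111, 48, 36 and 52 in anemic mice, or 199 and 338 cells in all. As a share of kept cells they made up 0.209% ± 0.0753 (SD, n = 6) in control and 0.312% ± 0.117 in anemic liver. The difference of 0.102 percentage points fell to 0.0589 without anemic mouse 3, which held 111 of the 338 cells. The groups overlapped, and the exact two-sided Mann-Whitney test gave p = 0.132 (0.264 after Benjamini-Hochberg adjustment over the 8 share tests). The precision is that of small counts: the lowest mouse, at 0.0956%, had an exact (Clopper-Pearson) 95% interval of 0.0557% to 0.153%, which covers counting error only.

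Because erythroid cells also vary between groups and enter the denominator, the share was taken among non-erythroid cells, those with hemoglobin genes under 20% of UMIs and a low count of other erythroid markers, Alas2 among them. It was 0.224% ± 0.0776 in control and 0.398% ± 0.151 in anemic liver. The median shift was 0.142 percentage points with a 95.9% interval of 0.0177 to 0.382 (exact p = 0.0411, adjusted p = 0.165). This difference was past the threshold only before adjustment. With a gate of 5 UMIs the adjusted p was 0.00866, and with up to 50% mitochondrial UMIs it was 0.0346.

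The ratio of primary- to secondary-granule cells was higher in anemia. For each secondary-granule cell there were 0.0789, 0.0943, 0.0840, 0.0967, 0.115 and 0.0416 primary-granule cells in the 6 controls and 0.152, 0.199, 0.163, 0.118, 0.116 and 0.212 in the 6 anemic mice. The lowest anemic mouse thus lay just above the highest control. The means were 0.0851 ± 0.0247 and 0.160 ± 0.0402, and the median shift was 0.0736 with a 95.9% interval of 0.0234 to 0.120 (exact two-sided Mann-Whitney p = 0.00216, the smallest that 6 against 6 mice allow, adjusted p = 0.0173). As the groups did not overlap, the direction was the same within either sex. The denominator also stood lower in anemia, secondary-granule cells making up 2.46% ± 0.569 of kept cells in control and 2.0% ± 0.709 in anemic mice, a median shift of -0.538 percentage points with a 95.9% interval of -1.21 to 0.462, so the ratio does not show a change in either stage alone. Without cells carrying over 5% hemoglobin or over 1% hepatocyte UMIs, an alternative chosen after the data were seen, the ratios were 0.0932 ± 0.0285 and 0.161 ± 0.0375, 4 of 6 anemic mice lay above all controls, and the adjusted p was 0.0693. That filter removed 10.7% of the secondary-granule cells of controls and 5.83% of those of anemic mice, against 2.51% and 4.44% of the primary-granule cells; applied to the primary-granule cells alone, it left 5 of 6 anemic mice above all controls (exact p = 0.00433). With the cells high on both granule sums counted as primary-granule cells, also chosen afterwards, the ratio differed by 0.112 (exact p = 0.00216). Among all 3 stages, the share was 5.50% ± 1.55 and 7.55% ± 2.01 (exact p = 0.132, adjusted p = 0.264), and without the cells high in hemoglobin or hepatocyte UMIs the difference was 1.30 points (exact p = 0.818) in place of 2.05. That filter also removed 32.3% of the mature neutrophils of controls and 9.27% of those of anemic mice, which lowers the denominator unequally.

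**Figure D3:**
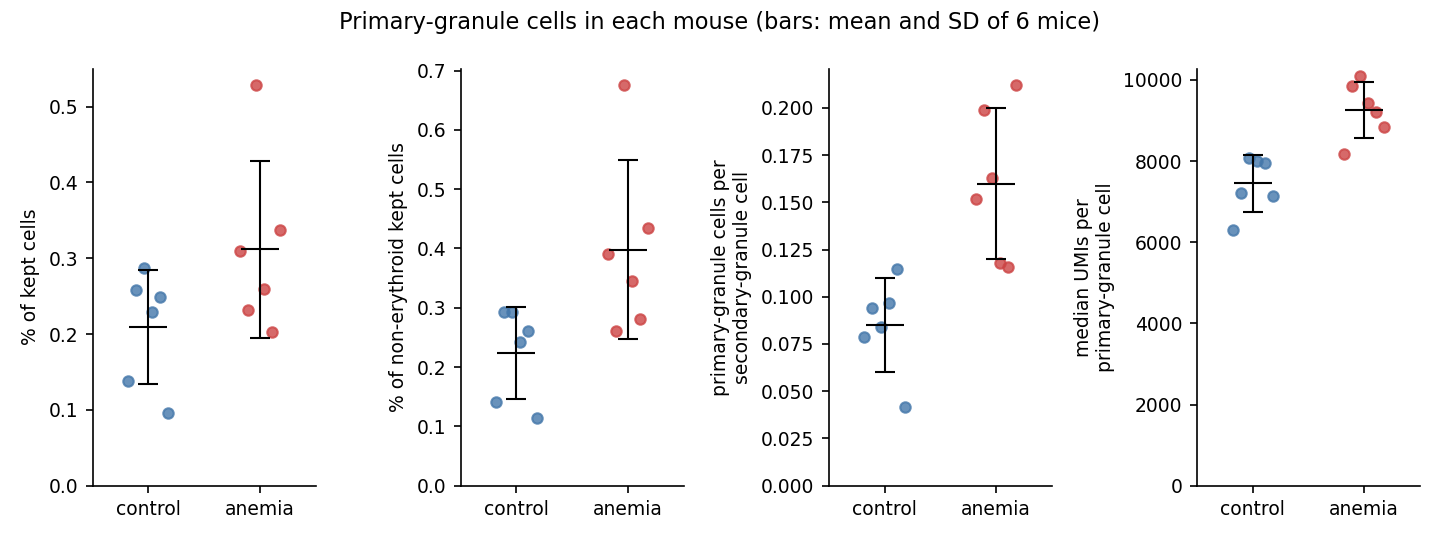
Primary-granule cells of the 6 control and 6 anemic mice as percent of kept cells, percent of non-erythroid kept cells and number per secondary-granule cell, and their median UMIs; each point is a mouse, and bars give mean and SD. The groups overlap in the first 2 panels and do not overlap in the ratio, where controls end at 0.115 and anemic mice begin at 0.116, or in the median UMIs.

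The makeup of the population did not differ detectably. Monocyte-directed cells made up 54.0% ± 9.57 of the thinned cells in control and 49.5% ± 7.12 in anemic mice, a median shift of -4.04 percentage points with an interval of -15.3 to 6.56. Granulocyte-directed cells made up 3.59% ± 4.42 and 4.21% ± 3.48, with an interval of the shift of -5.0 to 5.88 points. Without thinning they made up 7.61% ± 5.78 and 12.9% ± 5.56, a difference of 5.29 points (exact Mann-Whitney p = 0.132) in place of 0.615, and the anemic cells were deeper. Unthinned monocyte-directed and early shares were 61.9% ± 10.0 and 39.6% ± 8.46 in control and 54.6% ± 8.52 and 38.1% ± 4.40 in anemic mice. The early cells made up 17.1% ± 4.99 and 15.0% ± 6.87 (-9.31 to 6.16 points), and those in the G2/M range 61.9% ± 6.16 and 59.3% ± 6.06 (-9.58 to 5.23 points). With 1 mouse left out, the difference of means ran from -6.84 to -1.95 points for monocyte-directed cells (-4.49 with all mice), from -4.32 to -0.564 for early cells (-2.10) and from -4.45 to -0.987 for the G2/M range (-2.61). All 4 adjusted p-values were 0.671 by the exact Mann-Whitney test. With 17 to 111 cells a mouse, shifts within these intervals were not detectable.

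The cells themselves carried more UMIs in anemia. Their median was 6295, 7209, 8080, 8011, 7954.5 and 7132 UMIs in the control and 8177.5, 9844, 10088, 9430, 9210 and 8841.5 in the anemic mice, without overlap. The median shift was 1858 UMIs with a 95.9% interval of 887 to 2879 (exact Mann-Whitney p = 0.00216, unadjusted, a measure added after the data were seen). The median number of genes detected per cell was also higher in all anemic mice, at 2794 ± 154 in control and 3180 ± 115 in anemia (exact p = 0.00216). Secondary-granule cells and mature neutrophils also had more UMIs in all 6 anemic mice than in any control, with means of 2090 and 2925 and of 1054 and 1400, whereas the medians over all kept cells were 2211 ± 126 and 2203 ± 414 and overlapped. A raw gate of 10 UMIs is easier to reach in deeper cells. With a gate on shares of UMIs in its place, the medians differed by 2153 UMIs. The ratio of primary- to secondary-granule cells then differed by 0.0626 in place of 0.0749 (exact Mann-Whitney p = 0.00433, adjusted p = 0.0346). That p-value is no longer the smallest the test allows. The summed Elane, Mpo and Prtn3 share of UMIs was 1.13% ± 0.208 and 1.26% ± 0.228, and these overlapped.

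Gene expression was then compared in the UMIs of the primary-granule cells summed per mouse, with edgeR's quasi-likelihood test over 7632 genes that had at least 5 UMIs per mouse on average. CPM values from here on leave out the UMIs of mitochondrial and ribosomal protein genes and are scaled by TMM. At an adjusted p under 0.05, 1 gene was called (0.0131% of those tested). At an unadjusted p under 0.05, 221 genes were higher (2.9%) and 217 lower (2.84%) in anemia. All 6 anemic mice lay above all controls in 15 genes (0.197%) and below them in 9 (0.118%). On simulated counts with the same means and depths, 66 of 100 genes changed 2-fold in the groups of 6 and 96 of 100 changed 4-fold were recovered. There 200 genes changed at once, which makes the adjusted threshold easier to reach than in the data, where 1 gene was called. These rates are therefore likely too high for the data, and changes of 2-fold or more could also be missed. The primary-granule cells of anemic mice held 3412249 of the 4996312 UMIs, and the filter takes both groups together: 1179 tested genes were under 5 UMIs per mouse in controls and passed through the anemic mice, and 3 passed the other way. Such a gene is tested because of the group where it is high, so counts and medians over tested genes are descriptions. The lists below hold genes chosen by role, and their counts can be read against these shares.

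The called gene was Gm10076 (ENSMUSG00000060143), a lincRNA gene at chr14:105681828-105682211 on the plus strand. It stood at 140, 214, 97.1, 212, 195 and 273 CPM in controls and at 399, 458, 363, 365, 316 and 463 CPM in anemic mice. All anemic mice were above all controls, with a log2 fold change of 1.08 ± 0.17 (SE; adjusted p = 0.0159). Its identity is uncertain, since 82.2% of the 31-base stretches of its transcript also stand in transcripts of Rpl41, a ribosomal protein gene, so reads could be split between the genes. For Rpl41 itself the log2 fold change was 0.13 (adjusted p = 0.869) in a fit that kept ribosomal protein genes. Over the 85 ribosomal protein genes of that fit the median was 0.089, with 15 higher and 1 lower at an unadjusted p under 0.05. Left out of the fit 1 at a time, control 1, control 5 or anemic mouse 6 took the adjusted p of Gm10076 to between 0.0736 and 0.0782. Without the monocyte-directed cells it was 0.131. The log2 fold change was 1.03 to 1.10 in the former 3 fits and 0.98 in the last.

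Genes of hypoxia and glycolysis leaned upward. The list holds targets of the hypoxia-inducible factors, which raise sugar breakdown and restrain mitochondria at low oxygen, and the enzymes of glycolysis. None of its 25 tested genes was called, but 11 were higher and none lower at an unadjusted p under 0.05, 22 of 25 fold changes were positive, and the median log2 fold change was 0.34 against -0.0034 over all genes. Leaving out 1 mouse at a time gave medians of 0.26 to 0.38 and 8 to 14 genes higher, and the other settings kept the median between 0.27 and 0.41. Each mouse's summed level of the list, in CPM of all UMIs, ran from 8951 to 11483 in controls and from 10491 to 14811 in anemic mice, so the groups overlapped.

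Bnip3, which marks mitochondria for removal and is a direct target of hypoxia-inducible factor, had the largest fold change of the list. It stood at 8.23, 32.1, 13.2, 26.5, 28.5 and 29.2 CPM in controls and at 59.1, 114, 66.3, 59.9, 48.1 and 54.1 CPM in anemic mice. The groups did not overlap, and the log2 fold change was 1.47 ± 0.30, but the adjusted p was 0.088. Of the 25 tested genes of the list, 2 were under 5 UMIs per mouse in controls and passed through the anemic mice, Bnip3 among them. Its direction thus follows in part from how it was selected, and its values are a description. Anemic mouse 2 lay apart from the others, and the fold change without any 1 mouse ran from 1.28 to 1.62. Ero1l, the oxidase that passes electrons from new disulfide bonds to oxygen in the endoplasmic reticulum, stood at 90.5, 111, 79.5, 92.7, 89.6 and 78.0 CPM in controls and at 166, 199, 122, 156, 168 and 122 CPM in anemic mice. These groups did not overlap either, with a log2 fold change of 0.74 ± 0.17 and an adjusted p of 0.291.

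The promoter of Bnip3 (chr7:138890836-138909519, minus strand) is shown, as is that of Mt1 (chr8:94179082-94180327, plus strand). They were picked because they had the smallest adjusted p-values of all listed genes and have well-known response elements. Bnip3 was tested through the anemic mice, so its p-value serves here only to choose what is shown. Capitals mark ACGTG or GCGTG, the core bound by hypoxia-inducible factors, in Bnip3, and TGCACNC or TGCGCNC, the core bound by the metal-sensing factor, in Mt1, on both strands. The stretches are from RefSeq (GRCm38.p6), cut as above.
Bnip3, chr7:138909520-138909756, minus strand: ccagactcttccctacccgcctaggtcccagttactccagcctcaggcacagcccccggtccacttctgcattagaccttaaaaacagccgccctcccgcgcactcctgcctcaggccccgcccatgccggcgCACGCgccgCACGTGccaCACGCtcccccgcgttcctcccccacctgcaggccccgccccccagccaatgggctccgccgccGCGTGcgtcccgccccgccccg
Mt1, chr8:94178839-94179081, plus strand: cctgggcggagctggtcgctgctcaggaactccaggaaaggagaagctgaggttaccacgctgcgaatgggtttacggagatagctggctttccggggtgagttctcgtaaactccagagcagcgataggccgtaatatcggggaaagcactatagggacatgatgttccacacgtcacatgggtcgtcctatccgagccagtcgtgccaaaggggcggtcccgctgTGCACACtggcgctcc

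In Bnip3 the hypoxia core matched at -117, -108, -107, -99 and -35 from the RefSeq start, those at -108 and -107 overlapping on opposite strands. Of all promoters, 38.6% held it in 250 bases. The metal core matched at -23 in Mt1 and stood in 21.4% of all promoters.

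Among the glycolytic enzymes, lactate dehydrogenase A (Ldha), which regenerates NAD from pyruvate, stood at 576, 752, 772, 494, 696 and 634 CPM in controls and at 867, 1261, 1295, 734, 833 and 831 CPM in anemic mice, 5 of 6 above all controls. Its log2 fold change was 0.57 ± 0.15 (edgeR adjusted p = 0.6). Anemic mice 2 and 3 were the highest, and the same 2 mice led for Aldoa, Eno1, Mif and Tpi1. Aldolase A (Aldoa) was at 1516 ± 204 CPM in control and 2077 ± 378 in anemic mice, and enolase 1 (Eno1) at 695 ± 91.7 and 933 ± 173 CPM, with log2 fold changes of 0.46 and 0.43. Mif, a cytokine that hypoxia raises, was at 508 ± 162 and 861 ± 328 CPM (log2 fold change 0.74, adjusted p = 0.642). Reads of some of these genes are shared with copies elsewhere: 39.1% of the 31-base stretches of Mif, 28.5% of those of Eno1 and 20.3% of those of Bnip3 stood in transcripts of other genes. Triosephosphate isomerase (Tpi1), phosphoglycerate kinase 1 (Pgk1), glucose-6-phosphate isomerase (Gpi1) and Gapdh had log2 fold changes between 0.23 and 0.42. Slc16a3, the lactate exporter, was low at 26.9 ± 11.9 and 42.9 ± 23.7 CPM with 1 anemic mouse below all controls. Hexokinase 2 (Hk2), Pfkp and Bnip3l were the 3 tested genes with a fold change below 0, at most 0.17 in size.

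**Figure D4:**
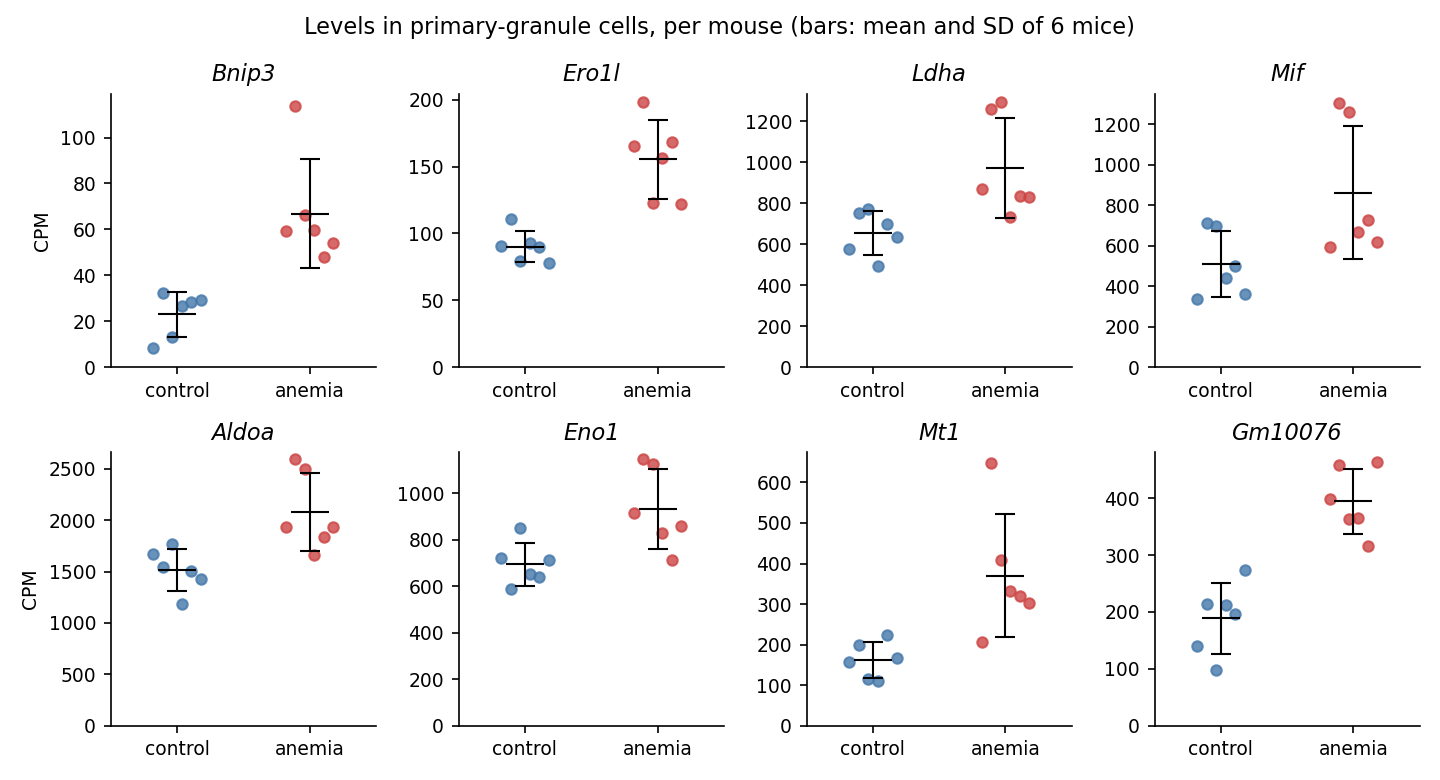
CPM (without mitochondrial and ribosomal protein genes, TMM-scaled) of Bnip3, Ero1l, Ldha, Mif, Aldoa, Eno1, Mt1 and Gm10076 in the primary-granule cells of each mouse, with mean and SD of 6 mice; vertical axes start at 0. Anemic and control points do not overlap for Bnip3, Ero1l and Gm10076, and Gm10076 alone was called at an adjusted p under 0.05.

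Metallothionein 1 (Mt1), which binds zinc and copper and rises with metals, glucocorticoids and hypoxia, stood at 156, 200, 115, 110, 224 and 166 CPM in controls and at 207, 648, 409, 333, 320 and 303 CPM in anemic mice. Only anemic mouse 1 fell within the control range, and the log2 fold change was 1.19 ± 0.23 (edgeR adjusted p = 0.070, and 0.00725 by DESeq2). Fabp4, a fatty acid binding protein of fat cells, macrophages and capillary endothelium, was on no list and was singled out after its values were seen: it was at 20.0 ± 6.14 and 68.9 ± 22.3 CPM without overlap (log2 fold change 1.59 ± 0.31, adjusted p = 0.070). Its lowest anemic value was 37.1 CPM and its highest control value 26.5 CPM. Fabp4 was under 5 UMIs per mouse in controls and was tested through the anemic mice, so its direction follows in part from that selection.

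No granule gene was called. Of the 14 primary-granule genes outside the gate, 1 was higher and none lower at an unadjusted p under 0.05, with a median log2 fold change of 0.16 (0.060 to 0.20 with 1 mouse left out). That gene was Ctsg, at 747 ± 144 CPM in control and 957 ± 121 in anemic mice (log2 fold change 0.35, adjusted p = 0.857). The gate genes Elane, Mpo and Prtn3, described without a test, had log2 fold changes of -0.00035, 0.22 and 0.31, and the 2 tested genes of the secondary-granule sum, which the rule limits, had a median of 0.83. The median was -0.13 over 11 tested genes of the later granules, where 1 was lower, and -0.048 over 12 granulocyte factors and receptors. With 1 mouse left out the former ran from -0.20 to 0.080, turning without control 1, and the latter from -0.093 to -0.022. Cebpd, a factor of later granulocytes and of glucocorticoid response, was at 187 ± 50.2 and 129 ± 39.0 CPM (log2 fold change -0.54, adjusted p = 0.857). Anxa1, the glucocorticoid-induced annexin of neutrophil granules, was at 866 ± 201 and 700 ± 106 CPM.

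Monocyte and progenitor genes gave medians near those of all genes. Of 12 tested monocyte genes, 1 was higher and 1 lower at an unadjusted p under 0.05, with a median of -0.11. Klf4, a factor of monocyte fate, was at 228 ± 57.6 and 165 ± 31.1 CPM, with 3 anemic mice below all controls. The higher gene, versican (Vcan), a matrix proteoglycan of mature inflammatory monocytes, had 3 UMIs in controls and 69 in anemic mice, and was tested through the latter alone. It was at 0 in 3 controls and at most 4.41 CPM in the others, and at 2.96 to 58.4 CPM in anemic mice. Of 13 early genes 8 had positive fold changes, the median was 0.11, and 0.0024 to 0.29 with 1 mouse left out, and 2 were lower at an unadjusted p under 0.05: Cd34 at 194 ± 40.2 and 141 ± 33.5 CPM, and the factor Gata2 at 35.1 ± 14.1 and 23.5 ± 8.91 CPM. Neither was past the adjusted threshold. In S phase, 2 of 16 genes were higher, among them the replication factor Gins2 at 34.8 ± 8.58 and 61.8 ± 11.1 CPM, while the list's median was 0.093. Of the 14 G2/M genes none was past an unadjusted p of 0.05, with a median of -0.051. With 1 mouse left out the medians ran from -0.17 to -0.025 for monocyte, 0.035 to 0.17 for S phase and -0.13 to 0.020 for G2/M genes, the last turning without control 1.

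Interferon response genes had the largest median of the response lists, and it rested on few mice. Of 21 genes 10 were tested, 5 of them with an unadjusted p under 0.05 and a higher level in anemia, and the median log2 fold change was 0.84. Of the 10, 4 passed the filter through the anemic mice, Cxcl10 and Isg15 among them, so their direction follows in part from how they were selected. Cxcl10, a chemokine induced by interferon, stood at 400 CPM in anemic mouse 2 and at most 10.8 CPM in the other anemic mice, against up to 39.7 CPM in controls. The list's median was 0.36, with 2 of 9 tested genes higher, when anemic mouse 2 was left out. Isg15, a ubiquitin-like protein, reached 70.1, 37.1 and 104 CPM in anemic mice 2, 3 and 5 and 0 to 16.3 CPM in controls. The levels of the other anemic mice, 5.21 to 13.5 CPM, lay within the control range.

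**Figure D5:**
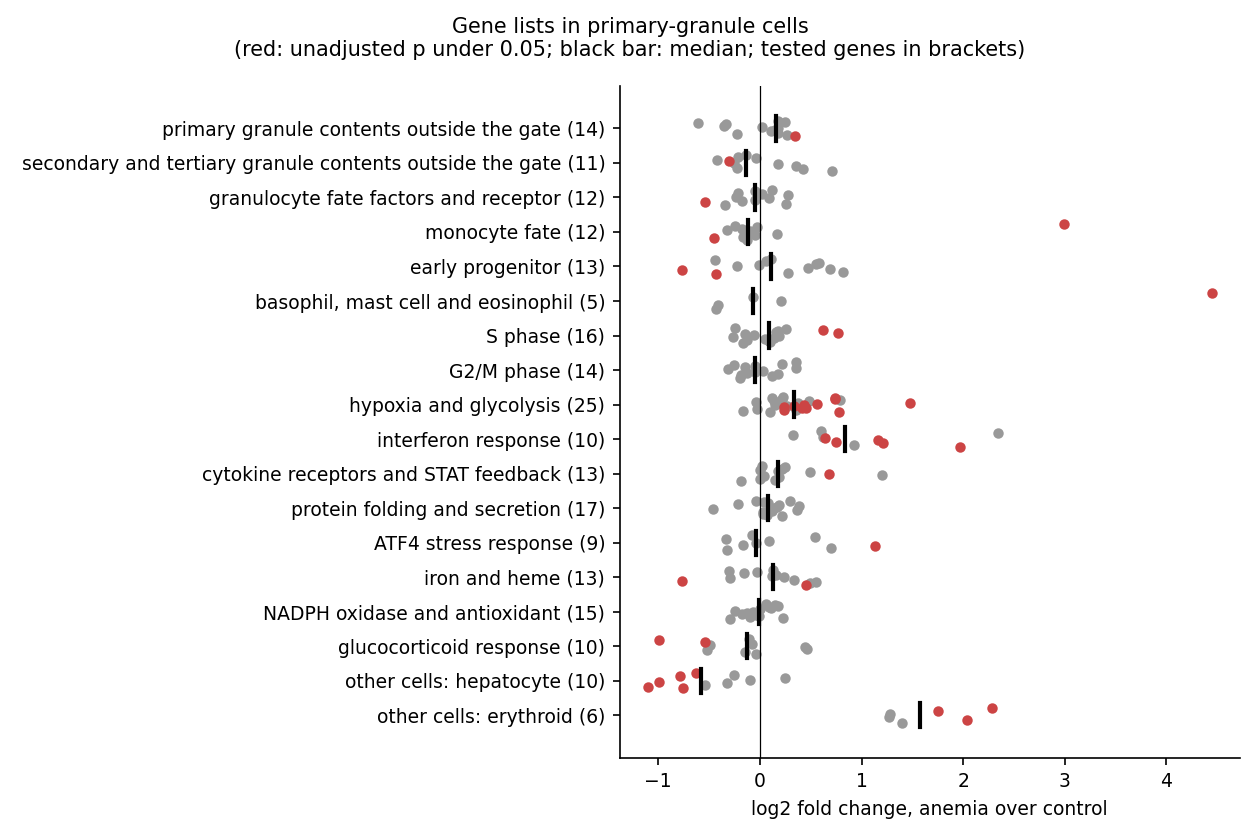
Log2 fold changes, anemia over control, of the tested genes of each list with at least 5 of them (number in brackets) in the primary-granule cells; red points had an unadjusted p under 0.05, and black bars are medians. The medians of the hypoxia and glycolysis, interferon and erythroid lists lie to the right of 0 and that of the hepatocyte list to the left; no gene drawn was called after adjustment.

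Other response lists stayed near 0. Medians were 0.18 for cytokine receptors and STAT feedback, 0.077 for protein folding, -0.034 for the ATF4 stress response, 0.13 for iron and heme, -0.009 for oxidase and antioxidant genes and -0.13 for glucocorticoid response, each with at most 2 genes past an unadjusted p of 0.05 in either direction. With 1 mouse left out they ran from 0.048 to 0.21 for cytokine receptors, 0.029 to 0.12 for protein folding, -0.17 to 0.060 for ATF4, -0.029 to 0.23 for iron and heme, -0.070 to 0.067 for oxidase genes and -0.36 to -0.0077 for glucocorticoid response, so single mice turned 3 of these medians. Pim1, a survival kinase downstream of STAT signals, reached 1174 and 963 CPM in anemic mice 2 and 3 and 320 to 433 CPM in the other 4, against 313 to 437 CPM in controls. The transferrin receptor (Tfrc), through which cells take up iron, was at 71.6 ± 18.5 and 93.2 ± 20.5 CPM (log2 fold change 0.45, adjusted p = 0.857). The heme enzyme Alad was at 42.7 ± 20.4 and 26.9 ± 11.3 CPM, and Errfi1, a glucocorticoid-induced inhibitor of growth factor receptors, at 29.7 ± 23.3 and 15.5 ± 2.32 CPM. Asparagine synthetase (Asns), of the ATF4 list, was at 8.4 ± 3.61 and 17.7 ± 9.31 CPM. Of the 9 tested genes of that list, 2 passed the filter through the anemic mice, Asns among them. Its direction thus follows in part from that selection.

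Of the metallothionein and zinc list 3 genes were tested, Mt1 being the 1 with an unadjusted p under 0.05, and the median was -0.075. Of the basophil, mast cell and eosinophil list 5 were tested, with 1 higher, Prg2, and a median of -0.07; Prg2 was at 385.5 CPM in anemic mouse 2 and at most 12.2 CPM in the other 11 mice. The lists of B lineage, endothelial, stellate, plasmacytoid dendritic, megakaryocyte and mature neutrophil genes had 1 to 4 genes tested each, with medians of -0.11, 0.21, 0.33, 0.34, 3.64 and -0.18 in that order. The stellate median, over 3 genes, held no direction: it was -3.63 without anemic mouse 6, where 1 gene was tested, 2.57 without control 2, and -1.32 by limma. A single gene of them was past that threshold, the platelet factor Pf4, the only one tested of the megakaryocyte list, at 238.2 and 52.6 CPM in anemic mice 3 and 2 and at most 16.3 CPM in the others. Pf4 and Prg2, with 6 and 3 UMIs in controls, were tested through the anemic mice alone, which sets their direction and the megakaryocyte median. With 1 mouse left out the basophil median ran from -0.35 to 0.34 and the metallothionein median from -0.17 to 0.073. No macrophage, T or NK cell gene reached the level needed for a test. The Y-linked list, with 3 genes tested, none past that threshold and a median of 0.73, moves with the unequal sexes of the groups.

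RNA of other liver cells was present in both groups, with overlapping levels and no gene called in the fit over all 537 cells. Hepatocyte genes summed to 1373 to 2139 CPM of all UMIs per mouse in control and 319 to 1794 in anemic primary-granule cells, and 5 of 10 tested genes were lower at an unadjusted p under 0.05, with a median log2 fold change of -0.58, which ran from -0.75 to -0.31 with 1 mouse left out, the latter without anemic mouse 3. Apoa1, the main protein of high-density lipoprotein, was at 213 ± 54.9 and 108 ± 56.7 CPM, and Ttr, a carrier of thyroid hormone, at 389 ± 82.1 and 207 ± 91.2 CPM. Erythroid genes summed to 217 to 11563 CPM in control and 776 to 14871 in anemic mice, with 3 of 6 tested genes higher and a median of 1.58. Of these 6 genes, 2 passed the filter through the anemic mice, so the direction of the list follows in part from that selection. Without control 1 the erythroid median was 3.19 with 6 genes higher, without anemic mouse 5 or 6 it was 0.94 and 1.03 with 1 higher, without anemic mouse 3 it was 1.41 with 1 higher, and leaving out other mice gave 1.18 to 1.79 with 2 to 4 higher. The beta-globin gene Hbb-bt ran from 8.83 to 419 CPM in controls and from 49.6 to 793 CPM in anemic mice. Of the 13 cells that also met the erythroid gate, 12 came from anemic mice. Of the erythroid list, no gene was at 0 in the cells; of the macrophage list, which the rule limits, all 8 genes summed to at most 74.6 CPM in either group. The part of this RNA in the differences above was not tested. Without the 20 cells high in hemoglobin or hepatocyte UMIs, 8 genes were called, among them 3 of the 4 tested erythroid genes and 1 of the 9 tested hepatocyte genes. The removed cells, 5 of control and 15 of anemic mice, were chosen by hemoglobin and hepatocyte UMIs, so the calls of such genes in that fit are a description and not a test. Hbb-bt had a log2 fold change of 2.26 there, against 2.04 over all cells, and Apoa1 one of -1.49, against -1.10. Bnip3 had an adjusted p of 0.0389 there, Fabp4 and Mt1 had 0.0135, and the hypoxia list had a median of 0.33 with 11 genes higher. Bnip3 and Fabp4 were tested there through the anemic mice, being under 5 UMIs per mouse in controls, so their calls are also descriptions. With no filter on low counts, 7 erythroid and 4 hepatocyte genes were called, Hbb-bt, Alas2, Apoa1, Ttr, Alb and Ahsg among them.

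The same contrast in the next stages is given side by side, from the same mice. In secondary-granule cells 25 of 8648 genes were called (0.289%), 5 higher and 20 lower, and in mature neutrophils 4 of 5967 (0.067%). For Bnip3 the log2 fold changes were 1.47 in primary-granule cells, 1.17 in secondary-granule cells (adjusted p = 0.0259) and 0.69 in mature neutrophils. For Gm10076 they were 1.08, 1.19 (adjusted p = 0.0184) and 0.75, for Fabp4 1.59, 1.40 (adjusted p = 0.0184) and 1.06, and for Mif 0.74, 1.15 (adjusted p = 0.0318) and 1.23. The medians of the hypoxia and glycolysis list were 0.34, 0.31 and 0.50. Ero1l was the exception among these, at 0.74, -0.053 and 0.82.

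Whether the effect of anemia differed between primary- and secondary-granule cells was tested as an interaction with the mouse as block. No gene of 7006 was called (0.0%) by edgeR, with 405 (5.78%) at an unadjusted p under 0.05 and a smallest adjusted p of 0.266. For Ero1l the difference of log2 fold changes was 0.78 (unadjusted p = 0.000334, adjusted p = 0.474), and for Ldha 0.55 (adjusted p = 0.761). In simulated counts, where 200 genes were changed at once, 41 of 100 interactions of 2-fold and 91 of 100 of 4-fold were recovered. With no gene called in the data the adjusted threshold is harder to reach, so these rates are likely too high for the data. The 2 stages were thus not shown to respond differently, nor alike.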

How the data were processed

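The values deposited by the authors are raw counts of UMIs for each gene in each barcode, made with Cell Ranger 7.0.0 per the file headers, with 1 library per liver and no pooling. Seurat and the build mm10 are named in the submitters' processing notes; the annotation and the counting of introns are not given in the sources used here, and either could shift levels of genes with overlapping or copied sequence. Gene positions were read from GENCODE M21, build GRCm38.

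The members and the gene lists were chosen with earlier results of these data known. The study's own limit of 50% mitochondrial UMIs was tightened to 20% here. Shares were compared per mouse by exact two-sided Mann-Whitney tests, adjusted over 8 tests. UMIs summed per mouse were fitted with edgeR 4.0.16 in R 4.3.3 (TMM, quasi-likelihood, Benjamini-Hochberg), without mitochondrial and ribosomal protein genes, as the study filtered; DESeq2 1.42.0 and limma 3.58.1 were alternatives, next to other gates, filters, scalings and each mouse left out. Lists are described by counts and medians of their tested genes; some genes of the lists and of the erythroid limit are not reported here by name. Other genes were to be named, up to 12 per direction, when called with at least 10 CPM and no overlap between groups, and up to 5 per direction when called in the interaction; Fabp4 fell outside this rule. Medians of shifts are Hodges-Lehmann estimates. The scripts were tested on simulated data: 162 of 200 changed genes were recovered with 4 false calls among 7632 for the group contrast, and 132 of 200 with 7 among 7006 for the interaction. The labels name mice as separate samples, so p-values measure the spread between mice. The interval of the share in a single mouse covers counting error only, while intervals of shifts are built from the differences between mice. Alternatives that left out cells with hemoglobin or hepatocyte UMIs from shares, counted cells high on both granule sums, kept ribosomal protein genes or concerned the UMIs per cell were chosen after seeing the data.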

Additional observations from a re-analysis of the deposited data

Results flagged for a closer look

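Values that lay apart from the other 5 mice of their group, by Dixon's criterion, were found in 12 of 100 gene and share groups examined, or 12.0%. For normally distributed values chance flags about 1 in 20. Several flagged genes were at or near 0 in the other mice, so 12.0% cannot be set against that rate. Anemic mouse 2 accounted for 4 of them: Bnip3 at 113.9, Bst2, an interferon-induced membrane protein, at 315.4, Cxcl10 at 400.1 and Prg2, the major basic protein of eosinophils, at 385.5 CPM. Anemic mouse 3 stood apart in Vcan at 58.4 CPM and in the platelet factor Pf4 at 238.2 CPM. Control mouse 1 stood apart in the erythroid genes Hbb-bt at 419.5 and Alas2 at 82.3 CPM. Single values came from control 4, lowest of its group in Tpi1 at 211.8 CPM, control 3 in Cxcl10 at 39.7 CPM, control 5 in Prg2 at 12.2 CPM and control 6 in Tfrc at 107.3 CPM. Groups contributed 17 to 111 cells a mouse, and control 1 and control 6, with 21 and 17 cells, had the lowest summed UMIs.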

How the results depend on the processing

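Cell numbers were small, at 17 to 111 a mouse. Summed UMIs were lowest in control 1 and control 6, and genes under 5 UMIs per mouse were not tested. The ratio of primary- to secondary-granule cells kept its direction in every alternative, and lost its adjusted call without cells high in hemoglobin or hepatocyte UMIs (0.0681, adjusted p = 0.0693) and under the replicate block, where pairing same-numbered mice by a sign-flip permutation test gave the same difference of 0.0749 (adjusted p = 0.165), since p = 0.03125 is the smallest that test allows. The share among non-erythroid cells became a call with a gate of 5 UMIs (0.259 percentage points) and with up to 50% mitochondrial UMIs (0.179). The granulocyte-directed share turned direction when thinned to 2000 UMIs (-1.98 points) and without control 1 or control 4 (-0.103) or anemic mouse 4 (-0.210), its values without 1 mouse ranging from -0.210 to 2.25, and the share in the G2/M range turned without thinning (5.87). The causes were not tested.

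The count of called genes was 2 with DESeq2, 58 (40 higher, 18 lower) with no filter on low counts among 17527 genes, 2 with Y-linked expression as a covariate, 3 with a gate of 20 UMIs, 8 (7 higher, 1 lower) without cells high in hemoglobin or hepatocyte UMIs, 0 without monocyte-directed cells, where 4775 genes were tested, and 8 (7 higher, 1 lower) with the replicate block. It ran from 0 to 2 with 1 mouse left out, being 0 without control 1, control 5 or anemic mouse 6 and 2 without anemic mouse 1 or 3. No other setting moved it. The interaction gave 0 to 1 called genes with 1 mouse left out, the 1 without control 2, and 0 otherwise. Over 41 genes examined one by one, 990 of 1031 refits kept the direction and the side of the threshold, 36 became calls, 4 lost one and 1 reversed, Prg2 under limma voomWithQualityWeights (-0.12). All of these genes but Gm10076 were uncalled in the main fit, most of them far from the threshold, so this count is not a measure of robustness. Some of the refits that became calls were of genes tested through the anemic mice, Fabp4 and Bnip3 among them. Correlations of same-numbered deviations ran from -0.0533 to 0.113, and 2 of 6 pairs matched their own number best. With so few cells a mouse, these values cannot decide whether the replicate numbers pair the mice.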
